A study of Homo sapiens with 6 samples.

Results

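The interleukins are secreted signalling proteins that act through receptor chains on the surface of the receiving cell. The genes described here were those whose platform symbol begins with IL and a digit, without the 3 antisense or divergent transcripts that share the pattern. They numbered 52 of the 14812 genes named on the arrays, each with 1 probe set, and the rule used their symbols. Most interleukin receptors pair a chain that binds the ligand with a second chain that other receptors share. IL1 and IL17 family receptors signal through adaptor proteins, TRAF6 and the TAB-TAK1 complex to NF-kB and AP-1, whereas most other interleukin receptors signal through JAK kinases and STAT factors. Squamous epithelium is a source of interleukins, among them IL18, and a responder to IL17, IL20 family and IL31 signals.

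Total RNA was compared between 3 arrays of UM-Cis and 3 arrays of UMSCC1. UMSCC1 is an established human oral squamous cell carcinoma line. UM-Cis is a cisplatin-resistant subline of it, raised under cisplatin that was stepped up from 1 to 5 µg/ml over about 12 months. Both lines were grown without cisplatin before the RNA was taken. UM-Cis is 1 selected subline, so cisplatin resistance cannot be told apart from other changes that arose during its selection. In each line 1 array carried no number in its label and the others were labelled 1 and 2. The labels do not say whether they were separate cultures. The spread behind every p-value is therefore that of these arrays, and it may be technical. All differences are UM-Cis minus UMSCC1 on the log2 scale of the deposited signal, and a gene passed when its limma p, adjusted over all 14812 genes, was under 0.05.

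The epithelial markers *EPCAM* and *SFN* were bright in both lines, with *EPCAM* at 10.24 to 10.70 on the 6 arrays. The keratins *KRT5*, *KRT13* and *KRT15* were lower in UM-Cis, and the median of the 9 measured squamous markers was 5.18 to 5.54 on the UM-Cis arrays and 6.20 to 6.49 on the UMSCC1 arrays. Of 12 measured immune cell markers, *CD68*, a lysosomal protein, was higher in UM-Cis by 1.41 and *CD14* was lower (difference −0.53), and the list's median was 5.08 to 5.19 in UM-Cis and 5.28 to 5.37 in UMSCC1. None of the 4 measured fibroblast and endothelial markers passed. Their part in the interleukin results was not tested. In RNA from bulk cultures, fewer cells of a type and less RNA per cell cannot be told apart. The unnumbered arrays of both lines deviated from their group means together, so values without them are given where they matter. No detection call was used, and 18 of the 52 genes had means in both lines under the median signal of the arrays (4.74 to 4.82).

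Of the 52 genes, 7 rose in UM-Cis, 3 fell and 42 did not pass. The genes that rose were *IL1RL1*, *IL18*, *IL18R1*, *IL1RN*, *IL6R*, *IL31RA* and *IL17RD*, and those that fell were *IL24*, *IL17RB* and *IL4R*. The 7 made 13.5% of the interleukin genes, where 5.91% of all genes tested rose, and the 3 made 5.77%, where 4.60% of all genes fell. At a 2-fold change or more together with a limma p under 0.05 before adjustment, the thresholds of the study's methods, 6 genes were higher (*IL1RL1*, *IL18*, *IL18R1*, *IL1RN*, *IL32* and *IL6R*; 2.44% of all genes) and 1 was lower (*IL24*; 1.70% of all genes). At the same thresholds the methods' t-test gave 5 higher and 1 lower, and the share of all genes by that test was not counted. The 3 UM-Cis arrays all lay above the UMSCC1 arrays for 8 interleukin genes (14.7% of all genes) and all below them for 10 (15.7% of all genes), which together was 34.6% of the interleukin genes and 30.4% of all genes. The median difference was −0.04 both over the 52 genes and over all genes, and the median size of the difference was 0.22 and 0.21.

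By role, 5 of 21 measured receptor genes rose (23.8%) and 2 fell (9.52%), and 1 of 24 measured ligand genes rose and 1 fell (4.17% each). Of all genes 5.91% rose and 4.60% fell. Of the listed genes, 17 of 38 receptors and 10 of 34 ligands were not analysed here. The antagonists and the genes outside the large families (*IL16*, *IL32*, *IL34* and *IL4I1*) were listed apart and counted in neither role. Of the measured receptor genes only *IL18RAP*, *IL23R*, *IL1RAPL1* and *IL1RAPL2* had both means under the array medians. The rest of the 18 genes with such means were ligands, so a missing call there cannot be read as no difference. The contrast between the roles was not tested. On leaving out 1 array at a time, *IL1RL1*, *IL18*, *IL18R1*, *IL6R* and *IL24* passed in 6 of 6 fits, and the other 5 passed in 1 or 2. The counts were lowest, at 4 higher and 1 lower, without array 1 of UM-Cis and again without array 1 of UMSCC1. Over all genes the calls were also fewer than on 6 arrays (5.91% higher and 4.60% lower). They were 3.11% and 2.21% without array 1 of UM-Cis, and 2.92% and 2.22% without array 1 of UMSCC1. With the numbered arrays alone all 10 genes still passed.

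**Figure D1:**
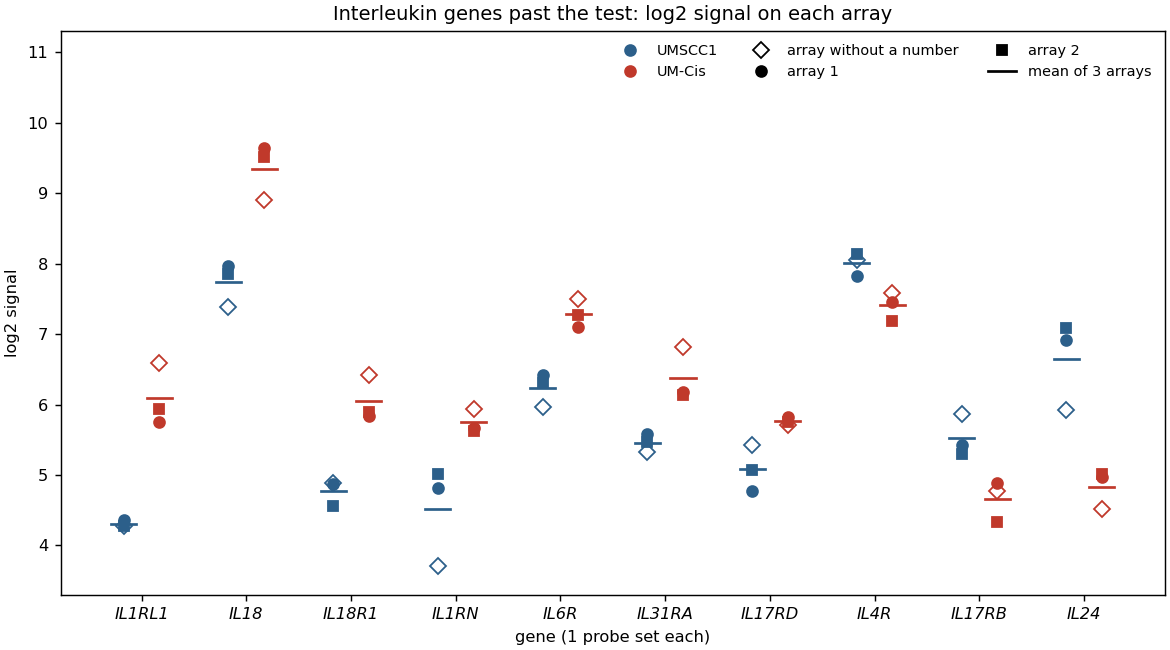
Log2 signal (vertical axis) of the 10 interleukin genes that passed, on each of the 3 UMSCC1 arrays (blue) and 3 UM-Cis arrays (red); shapes give the array label and bars the mean of 3 arrays. The arrays of the lines do not overlap for any of the 10 genes. Within UMSCC1 the unnumbered array is the farthest from the others most clearly for *IL18*, *IL1RN* and *IL24*, and also for *IL6R*, *IL17RB*, *IL31RA* and *IL17RD*. Within UM-Cis it is so for *IL1RL1*, *IL18*, *IL18R1*, *IL6R*, *IL24*, *IL31RA* and *IL1RN*.

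**Figure D2:**
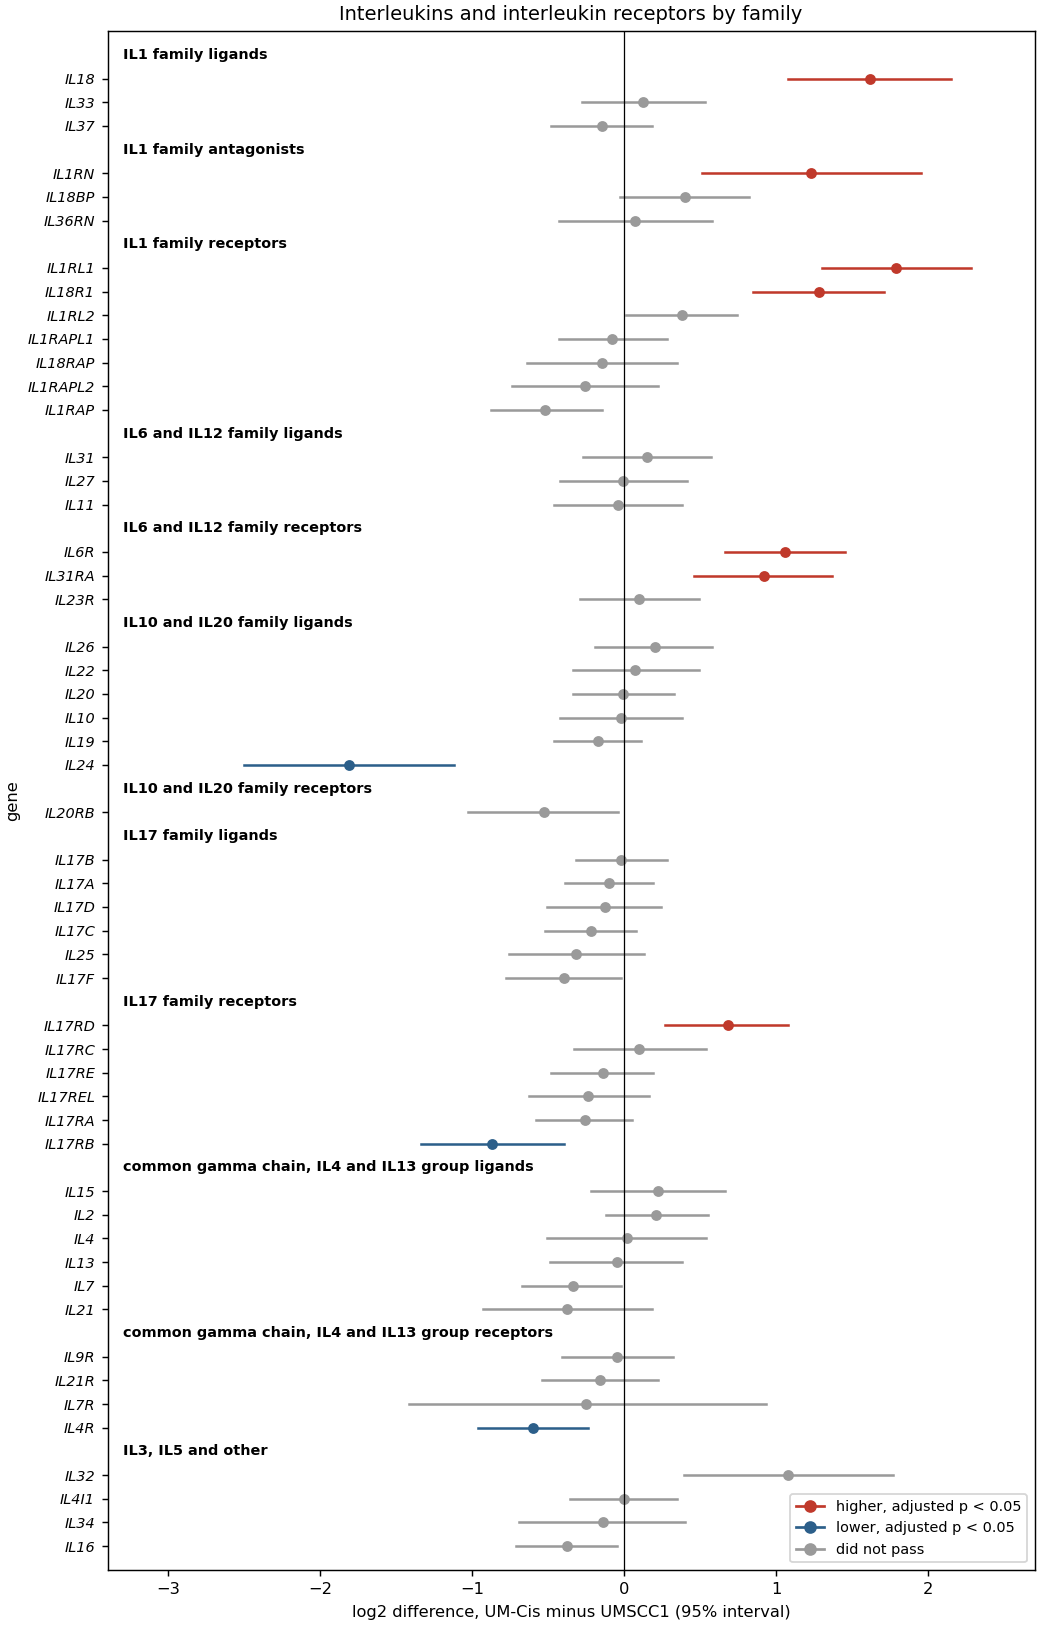
Difference in log2 signal between UM-Cis and UMSCC1 (horizontal axis, with its 95% interval) for each of the 52 interleukin genes, grouped by family and ordered by size. The 7 genes that rose lie among IL1, IL6 and IL17 family genes, *IL24* is the lowest at −1.81, and the grey intervals of genes that did not pass lie mostly across 0.

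The IL1 family held the largest rises. IL18 is a cytokine of this family that epithelial cells store as a precursor, and it is known for inducing interferon gamma in lymphocytes. *IL18* (probe set 16744415) had a log2 signal of 8.91, 9.64 and 9.51 on the unnumbered, first and second UM-Cis arrays and of 7.38, 7.97 and 7.86 on the matching UMSCC1 arrays. Every UM-Cis array was above every UMSCC1 array, and the unnumbered array was the lowest of each line. The mean was 9.35 ± 0.39 in UM-Cis and 7.74 ± 0.32 in UMSCC1 (SD, n = 3 each), a difference of 1.62 (SE 0.23, 95% interval 1.08 to 2.15, limma adjusted p = 0.0045), or 3.06-fold. Within arrays of the same label the difference was 1.53, 1.67 and 1.64, nearly the same amount although the signals themselves varied. The labels do not say that such arrays were handled together, and the test was unpaired.

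IL18 is bound by IL18R1 and then by the accessory chain IL18RAP. *IL18R1* (probe set 16883715) read 6.42, 5.84 and 5.90 in UM-Cis and 4.89, 4.87 and 4.56 in UMSCC1. The lines did not overlap, and the unnumbered UM-Cis array was the highest. The UMSCC1 mean, 4.77, lay within the range of the array medians (4.74 to 4.82). The difference was 1.28 (SE 0.19, adjusted p = 0.0050), or 2.43-fold. *IL18RAP* differed by −0.15, with 3.78 ± 0.29 in UM-Cis and 3.93 ± 0.35 in UMSCC1, and did not pass (adjusted p = 0.74). Both means of *IL18RAP* lay under the array medians, and its sign turned to 0.09 when the control genes' medians were made equal and to 0.03 with the numbered arrays alone. *IL18BP*, which encodes the secreted protein that binds and neutralizes IL18, read 6.35 ± 0.29 against 5.95 ± 0.21, a difference of 0.40 that did not pass (adjusted p = 0.23). *IL37*, an anti-inflammatory family member that can also bind IL18R1, differed by −0.15 (3.26 ± 0.02 and 3.41 ± 0.20, adjusted p = 0.58), and that sign also turned, to 0.09, with equal control medians. The ligand and its binding chain rose, while for the accessory chain and the antagonists no difference was detected on 3 arrays a line.

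*IL1RL1*, which encodes ST2, the receptor of IL33, had the largest rise of the 52 genes. Its probe set (16883690) read 6.59, 5.75 and 5.93 on the UM-Cis arrays and 4.27, 4.36 and 4.27 on the UMSCC1 arrays. The UMSCC1 arrays lay close together and under the median signal of the arrays, and the unnumbered UM-Cis array stood highest. The difference was 1.79 (SE 0.21, 95% interval 1.30 to 2.28, adjusted p = 0.0019), or 3.46-fold. Its ligand gene *IL33* read 2.69 ± 0.27 and 2.57 ± 0.19, low in both lines, and differed by 0.12 (adjusted p = 0.73). *IL1RAP*, the accessory chain shared by the IL1, IL33 and IL36 receptors, differed by −0.52 (6.73 ± 0.27 and 7.25 ± 0.05) and did not pass (adjusted p = 0.082). It passed without the unnumbered UM-Cis array, at −0.66 (adjusted p = 0.029), and not without any 1 of the other 5 arrays (adjusted p up to 0.24). With equal control medians it was at −0.28 (adjusted p = 0.63). *IL1RL2*, the receptor of the IL36 cytokines, differed by 0.38 (5.80 ± 0.12 and 5.43 ± 0.25, adjusted p = 0.19).

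*IL1RN* encodes the IL1 receptor antagonist, which occupies the IL1 receptor without signalling. It read 5.94, 5.67 and 5.62 in UM-Cis and 3.71, 4.82 and 5.02 in UMSCC1 (probe set 16884629). The lines did not overlap, but the unnumbered UMSCC1 array lay far below its 2 fellows. The UMSCC1 mean, 4.52, lay under the median signal of the arrays. The difference was 1.23 (SE 0.31, adjusted p = 0.044), and it was 0.73 with the numbered arrays alone (adjusted p = 0.012). The gene passed without the unnumbered UMSCC1 array and without UMSCC1 array 2, and lost its call without any of the other 4 arrays (adjusted p up to 0.12).

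The IL1 family receptor genes stand side by side on chromosome 2, and the order of the measured genes was set against their differences. In RefSeq order the run is *IL1R2*, *IL1R1*, *IL1RL2*, *IL1RL1*, *IL18R1* and *IL18RAP*, of which *IL1R2* and *IL1R1* were not analysed here. *IL1RL1* and its next neighbour *IL18R1* rose, and the 6 other measured genes of the 13-gene window, *IL1RL2* and *IL18RAP* included, lay between −0.15 and 0.52 and did not pass. The members that rose as neighbours are shown with their promoter letters, the 250 bases before the RefSeq transcription start on assembly GRCh38.p14, plus strand, 5′ to 3′. *IL1RL1* lies at chr2:102337007-102337256 and *IL18R1* at chr2:102355546-102355795. *IL1RN*, at chr2:113117721-113117970, is shown with them because it and *IL1RL1* were the only passing genes among the 8 with a promoter entry whose window held the AP-1 motif TGANTCA, which is given in capitals.
IL1RL1: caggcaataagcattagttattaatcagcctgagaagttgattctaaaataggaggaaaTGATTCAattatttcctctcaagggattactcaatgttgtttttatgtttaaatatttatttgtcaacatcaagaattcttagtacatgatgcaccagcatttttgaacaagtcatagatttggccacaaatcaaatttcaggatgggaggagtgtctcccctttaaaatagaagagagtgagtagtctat
IL18R1: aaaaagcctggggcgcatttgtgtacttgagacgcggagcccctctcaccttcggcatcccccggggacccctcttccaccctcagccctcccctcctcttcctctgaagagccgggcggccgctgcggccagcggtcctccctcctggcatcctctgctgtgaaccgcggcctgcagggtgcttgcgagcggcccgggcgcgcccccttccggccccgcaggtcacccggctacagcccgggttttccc
IL1RN: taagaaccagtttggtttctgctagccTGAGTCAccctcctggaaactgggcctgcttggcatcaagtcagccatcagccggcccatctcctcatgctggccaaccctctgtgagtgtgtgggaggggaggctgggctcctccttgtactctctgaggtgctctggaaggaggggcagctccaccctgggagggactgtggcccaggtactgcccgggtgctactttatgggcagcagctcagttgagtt

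The capitals mark the AP-1 letters 191 to 185 bases before the start of *IL1RL1* and 223 to 217 bases before the start of *IL1RN*. The motif was searched on both strands, and 6.60% of 27305 RefSeq promoters of this length held it, against 6 of the 40 interleukin genes with an entry (15.0%). The STAT motif TTCNNNGAA was in 6.78% of all promoters and in 1 of the 40, and in none of the 8 passing genes. The NF-kB consensus was in 5.05% of all promoters and in 4 of the 40, among them *IL4R*, where it occurred 50 to 41 and 10 to 1 bases before the start. A match is a run of letters in the window and not a site of binding.

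**Figure D3:**
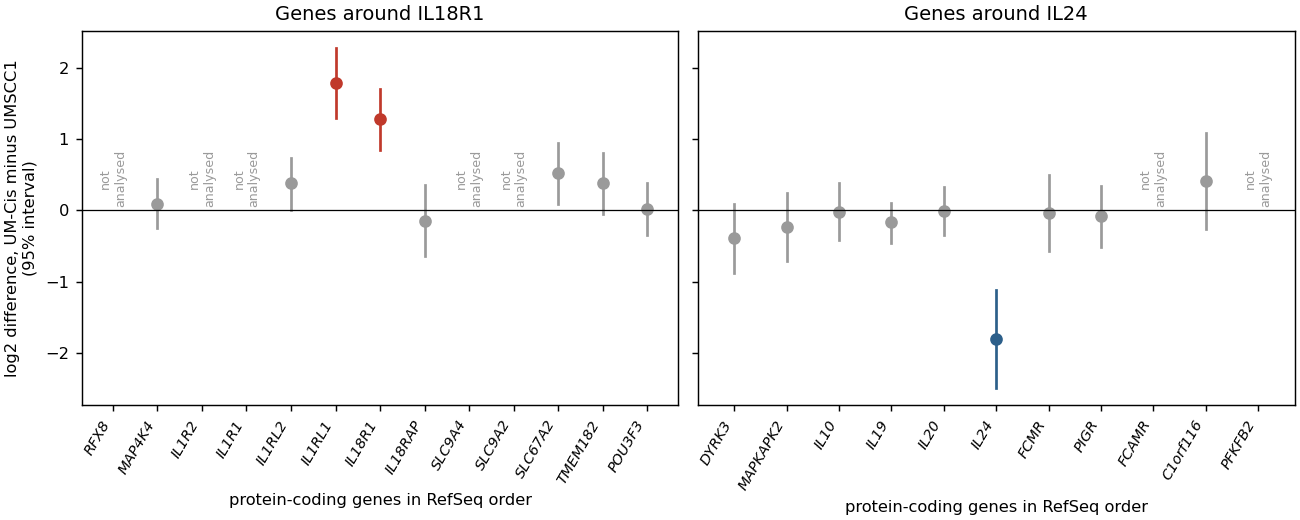
Difference in log2 signal between UM-Cis and UMSCC1 (vertical axis, with its 95% interval) for protein-coding genes in RefSeq order around *IL18R1* (left) and *IL24* (right); red and blue mark genes that passed, and genes without a value were not analysed here. *IL1RL1* (1.79) and *IL18R1* (1.28) stand above their neighbours, and *IL24* (−1.81) is the 1 gene of its window that passed.

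*IL24* had the largest fall of the 52 genes. IL24 belongs to the IL20 subfamily of the IL10 family, signals to epithelial cells through IL20RB paired with IL20RA or IL22RA1, and is known for killing tumour cells when it is overexpressed. The probe set (16676682) read 4.51, 4.97 and 5.02 on the UM-Cis arrays and 5.92, 6.92 and 7.08 on the UMSCC1 arrays. Every UM-Cis array was below every UMSCC1 array, and the unnumbered array was the lowest in each line. The mean was 4.83 ± 0.28 in UM-Cis and 6.64 ± 0.63 in UMSCC1, a difference of −1.81 (SE 0.30, 95% interval −2.50 to −1.12, adjusted p = 0.0078), so that UMSCC1 was 3.50-fold higher. The UM-Cis mean lay close to the median signal of the arrays (4.74 to 4.82). Within arrays of the same label the difference was −1.42, −1.94 and −2.06, and the numbered arrays alone gave an adjusted p of 0.00064.

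No difference was detected in the other ligand genes of the family, all of which had both means under the array medians. *IL19* and *IL20* encode ligands of the same receptors and precede *IL24* on chromosome 1, after *IL10*. *IL19* differed by −0.17 (4.48 ± 0.06 and 4.65 ± 0.09, adjusted p = 0.44) and *IL20* by −0.01 (4.61 ± 0.13 and 4.62 ± 0.18, adjusted p = 0.99), and with equal control medians both signs turned, to 0.06 and 0.23. *IL10*, *IL22* and *IL26* lay between −0.02 and 0.20. In the 11-gene window around *IL24*, 9 genes were measured, and the 8 apart from *IL24* lay between −0.39 and 0.42 and did not pass. The receptor chain *IL20RB* differed by −0.53 (4.86 ± 0.36 and 5.40 ± 0.27, adjusted p = 0.17) with overlapping arrays, and *IL20RA* and *IL22RA1* were not analysed here. The promoter of *IL24* is shown because it carries the largest fall, at chr1:206897193-206897442 of GRCh38.p14, plus strand, and none of the 3 motifs was found in it, so no letter is in capitals.
IL24: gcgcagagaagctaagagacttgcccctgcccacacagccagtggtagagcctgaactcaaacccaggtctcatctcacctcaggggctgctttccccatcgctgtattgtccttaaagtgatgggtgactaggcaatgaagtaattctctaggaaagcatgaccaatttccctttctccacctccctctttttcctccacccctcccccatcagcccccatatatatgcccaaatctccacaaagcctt

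Of 3 measured receptor genes of the IL6 and IL12 families, 2 rose. *IL6R* encodes the chain that binds IL6 and hands it to the shared chain gp130, and it also occurs in a soluble form. It read 7.50, 7.10 and 7.27 in UM-Cis and 5.97, 6.42 and 6.30 in UMSCC1 (probe set 16671457). The lines were well apart and the unnumbered arrays were the most extreme of each, high in UM-Cis and low in UMSCC1. The difference was 1.06 (SE 0.17, 95% interval 0.66 to 1.45, adjusted p = 0.0070), or 2.08-fold, and 0.82 with the numbered arrays alone (adjusted p = 0.0083).

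*IL31RA* encodes the chain that pairs with OSMR to form the receptor of IL31, a cytokine known for itch in skin. It read 6.81, 6.18 and 6.14 in UM-Cis and 5.32, 5.58 and 5.47 in UMSCC1 (probe set 16984905). No array overlapped, and the unnumbered UM-Cis array exceeded the others. The difference was 0.92 (SE 0.20, adjusted p = 0.023) and 0.63 with the numbered arrays alone (adjusted p = 0.015). The call was lost without UM-Cis array 1 or without any 1 of the UMSCC1 arrays (adjusted p up to 0.072). The ligand gene *IL31* differed by 0.15 (adjusted p = 0.68), and the difference was −0.01 without the unnumbered UM-Cis array. *IL31RA* lies next to *IL6ST*, the gene of gp130, which was not analysed here, and neither were *IL6* and the IL12 receptor genes. The remaining receptor gene of the group, *IL23R*, did not pass, and the ligands *IL11*, *IL27* and *IL31* lay between −0.04 and 0.15.

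Partner chains that carry no IL symbol were described by a list of their own. *OSMR*, the partner of IL31RA and of gp130 in the oncostatin M receptor, read 9.74, 9.50 and 9.71 in UM-Cis and 8.31, 8.72 and 8.75 in UMSCC1. The arrays were clearly apart, with a difference of 1.06 (SE 0.16, adjusted p = 0.0058). *LIFR*, the partner of gp130 in the LIF receptor, read 7.33, 7.10 and 7.13 in UM-Cis and 6.02, 5.89 and 6.08 in UMSCC1. Its arrays were also apart, with a difference of 1.19 (SE 0.13, adjusted p = 0.0015). They were the 2 of 10 measured genes on the list of partners that passed, and the other 8 lay between −0.44 and 0.07.

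In the IL17 receptor family 1 gene fell and 1 rose. *IL17RB* encodes the chain that binds IL25, and it read 4.77, 4.88 and 4.33 in UM-Cis and 5.87, 5.42 and 5.30 in UMSCC1 (probe set 16941871). No array overlapped, although array 2 of UM-Cis was lower than the others of its line. The difference was −0.87 (SE 0.20, adjusted p = 0.032), so that UMSCC1 was 1.83-fold higher. The means were 4.66 in UM-Cis, under the array medians, and 5.53 in UMSCC1. Both were under the median of all named probe sets (5.73). The call was kept without the unnumbered UM-Cis array and lost without any of the other 5 arrays (adjusted p up to 0.11), and with equal control medians it was −0.63 (adjusted p = 0.13). *IL25*, its ligand, differed by −0.32 (adjusted p = 0.37) and *IL17RA*, the chain shared by the receptors of this family, by −0.26 (adjusted p = 0.29).

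*IL17RD*, also called SEF, is a family member known for restraining fibroblast growth factor signalling. It read 5.71, 5.82 and 5.75 in UM-Cis and 5.42, 4.77 and 5.07 in UMSCC1 (probe set 16955324). The UM-Cis arrays agree within a narrow range above the more scattered UMSCC1 arrays. The difference was 0.68 (SE 0.18, adjusted p = 0.049). The call was kept without the unnumbered UMSCC1 array and lost without any of the other 5 arrays (adjusted p up to 0.16), after renewed quantile normalization (adjusted p = 0.054) and with every named probe set tested (adjusted p = 0.052). The 6 ligands of the family, *IL17A* to *IL17F* with *IL25* as the fifth member, had differences from −0.40 to −0.02, and none passed. Of all genes tested 55.1% had a difference below 0, and with equal control medians 2 of the 6 ligands did. *IL17F* was the lowest (3.47 ± 0.18 and 3.87 ± 0.23, adjusted p = 0.18).

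Among receptors of the common gamma chain and of IL4 and IL13, *IL4R* fell. It encodes the chain that binds IL4 and that also serves the IL13 receptor. It read 7.58, 7.45 and 7.18 in UM-Cis and 8.05, 7.83 and 8.14 in UMSCC1 (probe set 16817254). The lines did not overlap, and the gap between the highest UM-Cis array and the lowest UMSCC1 array was small. The difference was −0.60 (SE 0.16, adjusted p = 0.046), so that UMSCC1 was 1.52-fold higher. The call was kept without the unnumbered UM-Cis array and lost without any of the other 5 arrays (adjusted p up to 0.15), and with equal control medians the difference was −0.36 (adjusted p = 0.48). The 6 measured ligands of the group lay between −0.38 and 0.22, and none passed. *IL7*, a survival factor of lymphocytes, was the one with an unadjusted p under 0.05, at −0.34 (4.76 ± 0.02 and 5.10 ± 0.20, adjusted p = 0.18).

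*IL7R*, the binding chain of the IL7 receptor and a chain of the TSLP receptor, turned with a single array. It read 7.11, 7.15 and 7.21 in UM-Cis and 8.83, 6.72 and 6.66 in UMSCC1. The UM-Cis arrays were nearly equal, and the unnumbered UMSCC1 array lay above all others while its 2 fellows lay below UM-Cis. The difference was −0.25 (SE 0.51, adjusted p = 0.82) on all arrays, 0.47 without the unnumbered UMSCC1 array (adjusted p = 0.066) and 0.49 with the numbered arrays alone (adjusted p = 0.032). *IL7R* was named after its values were seen.

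*IL32*, which encodes a proinflammatory cytokine outside the large families, was just short of the threshold. It read 7.17, 6.17 and 5.92 in UM-Cis and 5.55, 5.27 and 5.20 in UMSCC1. The lines did not overlap, and the unnumbered UM-Cis array was far above the rest. The difference was 1.08 (SE 0.30, adjusted p = 0.059), or 2.12-fold. With the array label as a replicate block it passed (1.08, adjusted p = 0.014), the 1 call among the 52 genes that the block changed, and under the block 9.79% of all genes rose and 8.40% fell. It also passed without the unnumbered UM-Cis array, at 0.70 (adjusted p = 0.039), and without UM-Cis array 2. It did not pass without any 1 of the other 4 arrays (adjusted p up to 0.17). Of the 16 alternatives 7 gave a call, and the methods' t-test gave an adjusted p of 0.24. *IL16*, a chemoattractant for CD4+ cells, differed by −0.38 (4.85 ± 0.10 and 5.23 ± 0.19, adjusted p = 0.15).

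**Figure D4:**
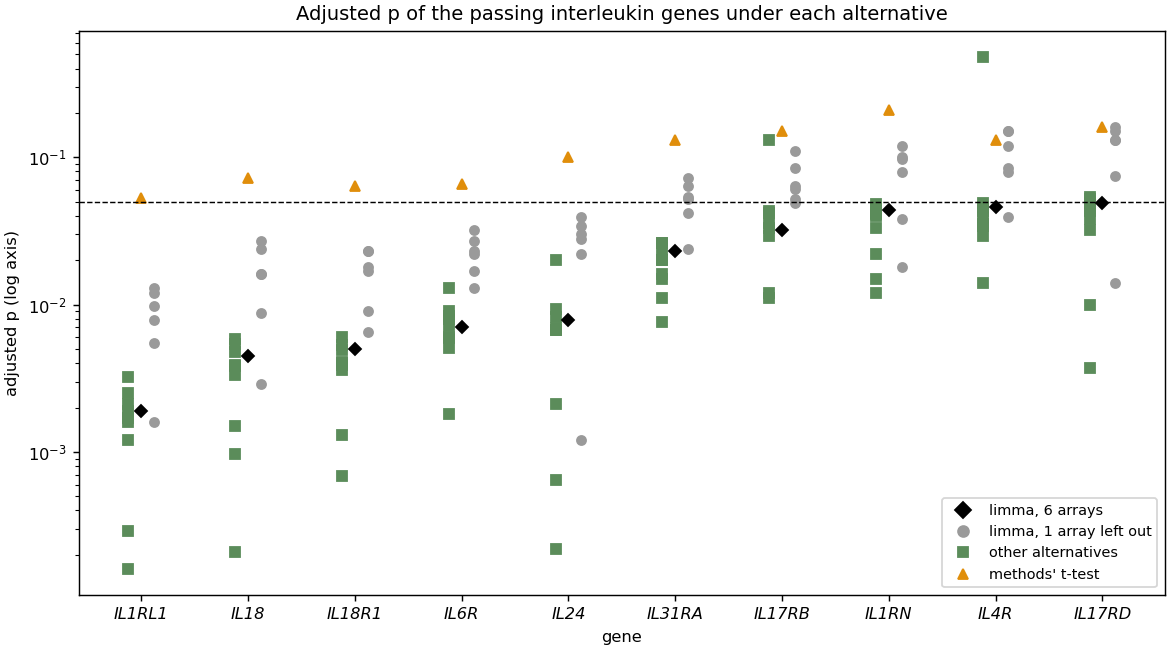
Adjusted p (vertical log axis) of the 10 interleukin genes that passed, in limma on 6 arrays (black), with 1 array left out (grey), under the other alternatives (green) and by the methods' t-test (orange); the dashed line is 0.05. The grey points of *IL1RL1*, *IL18*, *IL18R1*, *IL6R* and *IL24* all lie below the line, and the orange points of all 10 genes lie above it.

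Genes that work beside the interleukins were taken from 5 lists of 105 symbols, of which 62 were measured. Of these 9 rose (14.5%) and 5 fell (8.06%), against 5.91% and 4.60% of all genes. With the replicate block 11 rose, where *IRAK2* and *SOCS6* were added, and 9 fell, where *LIF*, *PYCARD*, *SOCS1* and *TRAF3* were added, against 9.79% and 8.40% of all genes. No gene of the inflammasome list, which covers the processing of IL18 and its relatives, passed among the 7 measured. *PYCARD*, the adaptor of the inflammasome, differed by −0.60 (adjusted p = 0.13; −0.60 and 0.027 with the replicate block), and *CASP1*, the protease that cleaves pro-IL18, was not analysed here.

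Of 16 measured JAK, STAT and SOCS genes 3 rose and 1 fell. *STAT4*, the factor that carries IL12 signals, read 6.22, 6.64 and 6.92 in UM-Cis and 4.74, 4.97 and 4.36 in UMSCC1. The lines were far apart on all arrays, with a difference of 1.90 (SE 0.22, adjusted p = 0.0018). The UMSCC1 mean, 4.69, lay under the median signal of the arrays. *JAK1*, the kinase bound to gp130 and many other receptors, rose by 0.65 (adjusted p = 0.020), and *SOCS7*, of the family of cytokine signalling suppressors, by 0.96 (adjusted p = 0.027). *SOCS2* of the same family fell by 0.75 (adjusted p = 0.020). The calls of *JAK1* and *SOCS7* were lost without UM-Cis array 2 or either numbered UMSCC1 array (adjusted p up to 0.088 and 0.11), and that of *SOCS2* without any 1 of the 4 numbered arrays (up to 0.083). With equal control medians *SOCS2* was at −0.52 (adjusted p = 0.36).

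Of 15 measured genes of IL1 and IL17 receptor signalling 2 rose and none fell, while with the replicate block *IRAK2* also rose (0.41, adjusted p = 0.048) and *TRAF3* fell (difference −0.51, adjusted p = 0.030). *TAB3*, which links TRAF6 to the kinase TAK1, read 9.27, 9.29 and 9.58 in UM-Cis and 8.07, 8.28 and 8.24 in UMSCC1. The lines were apart by a wide gap, with a difference of 1.18 (SE 0.14, adjusted p = 0.0021). *TAB2*, its close relative, rose by 0.57 (adjusted p = 0.028) and lost its call on leaving out any 1 of the 6 arrays (adjusted p 0.054 to 0.098) and with equal control medians (0.81, adjusted p = 0.080). The other 13, which include the adaptor *MYD88*, lay between −0.51 and 0.41.

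Genes by which epithelium answers IL17 and IL20 family cytokines moved both ways. Of 14 measured, 2 rose and 4 fell. *CSF3*, which encodes the neutrophil growth factor G-CSF, read 7.23, 7.62 and 7.25 in UM-Cis and 8.80, 8.62 and 8.62 in UMSCC1. It was lower on every UM-Cis array, with a difference of −1.32 (SE 0.15, adjusted p = 0.0018). *STEAP4*, a metalloreductase, rose by 1.59 (adjusted p = 0.0054), from a UMSCC1 mean of 3.89 that lay under the median signal of the arrays. *CCL20*, a chemokine that attracts CCR6-bearing cells, rose by 1.19 (adjusted p = 0.017).

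The remaining calls of that list rested on fewer arrays. *S100A9*, a subunit of calprotectin, fell by 0.88 (adjusted p = 0.031), and with equal control medians it was at −0.64 (adjusted p = 0.23). *MMP1*, a collagenase, read 3.50, 3.73 and 3.60 in UM-Cis and 7.23, 5.04 and 4.90 in UMSCC1. *CXCL8*, the neutrophil chemokine also called IL8, read 5.04, 5.27 and 5.05 in UM-Cis and 7.88, 6.15 and 6.14 in UMSCC1. In both genes the lines did not overlap and the unnumbered UMSCC1 array was far above its fellows. The differences were −2.11 (adjusted p = 0.044) and −1.60 (adjusted p = 0.049), and −1.30 and −0.98 with the numbered arrays alone (adjusted p = 0.0020 and 0.0046). *MMP1* kept its call only without the unnumbered UMSCC1 array or UMSCC1 array 2, and *CXCL8* only without the unnumbered UMSCC1 array (adjusted p otherwise up to 0.12 and 0.14). *CCL20* kept its call without either unnumbered array and *S100A9* without array 2 of either line (adjusted p otherwise up to 0.073 and 0.11). *CXCL8* was named outside the rule, as an interleukin by its older name, after its value was seen.

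**Figure D5:**
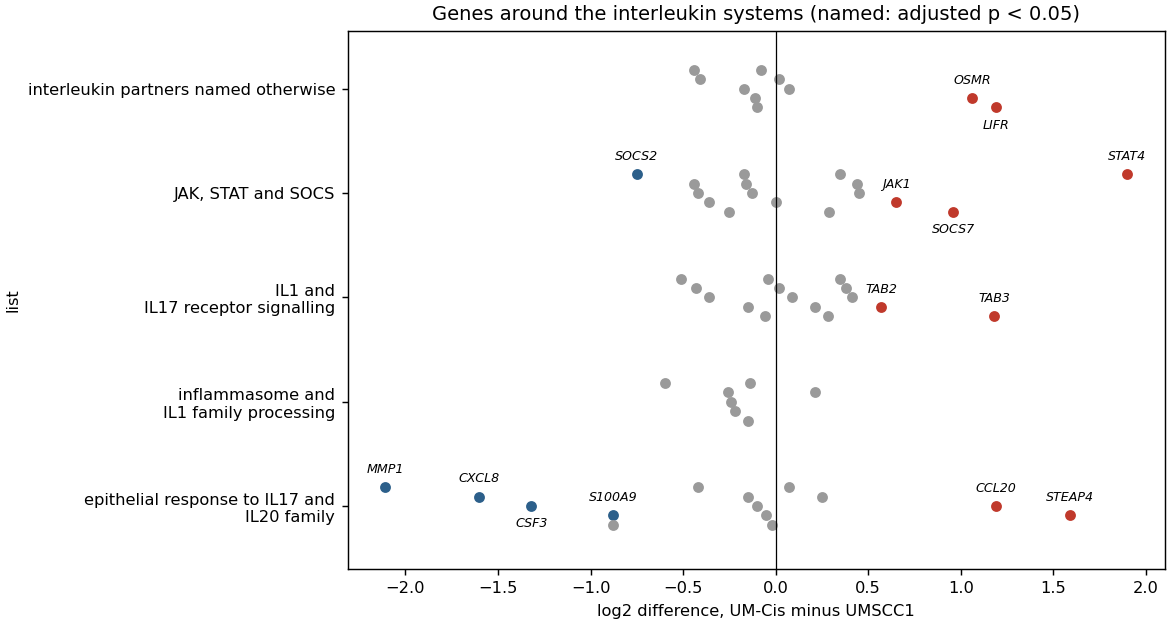
Difference in log2 signal between UM-Cis and UMSCC1 (horizontal axis) for the 62 measured genes of 5 lists around the interleukin systems, 1 dot a gene, with dots spread vertically only to separate them. Named dots passed (9 red higher, 5 blue lower), and the inflammasome list has none.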

How the data were processed

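Total RNA of both lines was measured on Affymetrix Human Gene ST arrays. The values deposited by the authors are log2 signals, 1 per probe set and array. They are normalized between arrays: quantile normalization is named in the study's text and RMA in the submitters' processing notes. Not given in the sources used here were the version of the normalization software and any filter on probe sets. Probe sets were named through the platform annotation, and the brightest of each symbol was kept. Of 44629 probe sets 15835 had exactly 1 symbol, and the other 28794, with no symbol or more than 1, were left out. The 52 interleukin identifiers were all in the RefSeq table, and 33 of 85 listed family symbols were not analysed here. Lines were compared on all 14812 genes with limma 3.58.1 in R 4.3.3 (lmFit, eBayes, Benjamini-Hochberg adjustment), without a filter on dim signals. The script was tested on simulated data first. Arrays have no read depth, and their number (3 a line) limits the precision.

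Values are given per array for the interleukin genes that passed, for *IL32* and *IL7R* and for some passing genes of the surrounding lists, and as mean ± SD (n = 3) for others with an unadjusted p under 0.05 and for the IL18 and IL24 systems. *IL33*, *IL31*, *IL25*, *IL17RA*, *IL7R*, *CXCL8* and *PYCARD* were added after their values were seen. The members, gene lists and tests were chosen with earlier results of these data known. Deviations from the group means correlated at 0.505 between the unnumbered arrays, 0.237 between arrays 1 and 0.357 between arrays 2, and like-labelled arrays were paired only in the replicate block and in the differences given within labels, the printed tests being unpaired, although array 1 of UM-Cis also correlated at 0.265 with array 2 of UMSCC1. The pairing follows the array numbers in the labels, which do not say that like-numbered arrays were handled together. Promoters were RefSeq sequences of GRCh38.p14. Alternatives covered the methods' t-test, variance prior, array weights, scaling, dim filter, choice of probe set, replicate block, arrays left out and, chosen after seeing the data, the numbered arrays alone.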

Additional observations from a re-analysis of the deposited data

How the results depend on the processing

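*IL1RL1*, *IL18*, *IL18R1*, *IL6R* and *IL24* kept their direction under all 16 alternatives and their call under 15, the exception being the methods' t-test. By that test 0 of the 52 genes passed after adjustment in either direction (limma 7 and 3), 14 had an unadjusted p under 0.05, and the lowest adjusted p was 0.053 (*IL1RL1*). Over all genes 2.17% were higher and 1.67% lower by the t-test after adjustment. It gave 3 higher and 2 lower genes of the surrounding lists (limma 9 and 5). Array weights gave 9 higher and 5 lower interleukin genes, 3 that were 2-fold higher (limma 6), and 12 higher and 8 lower surrounding genes, where 10.8% of all genes were higher and 10.2% lower. The numbered arrays alone gave 10 higher and 5 lower interleukin genes and 3 that were 2-fold higher, where 9.36% of all genes were higher and 8.78% lower. The filter on dim signals kept 22 of the 52 genes and gave 8 higher and 2 lower. Of the 7961 genes it kept, 11.7% were higher and 9.56% lower. It left out *IL17RB*, and *IL32* passed. Equal medians of 6 control genes moved the median of all genes from −0.04 to 0.20 and the share of rises among all calls from 56.3% to 82.6%, and gave 8 higher and 1 lower interleukin genes and 8 higher and 3 lower surrounding genes. With these medians 5.31% of all genes were higher and 1.12% lower. The replicate block gave 11 higher and 9 lower surrounding genes and changed no interleukin call but that of *IL32*. Leaving out 1 array gave 4 to 6 higher and 1 to 4 lower interleukin genes, 4 to 7 that were 2-fold higher, and 5 to 8 higher and 1 to 4 lower surrounding genes. In these fits 2.92% to 5.73% of all genes were higher and 2.19% to 4.98% lower. For the 2-fold counts of the alternatives and the unadjusted count of the t-test, the share of all genes was not counted.

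Among the 42 interleukin genes that had not passed, the sign turned in 18 with equal control medians, 8 with the numbered arrays alone, 5 with array weights and 3 after quantile normalization. The named ones follow. With equal control medians *IL18RAP* was at 0.09, *IL37* at 0.09, *IL19* at 0.06 and *IL20* at 0.23. *IL20* was at 0.01 after quantile normalization and 0.01 with the numbered arrays alone, where *IL18RAP* was at 0.03 and *IL7R* at 0.49. Array weights put *IL7R* at 0.28. Leaving out 1 array gave −0.06 to 0.10 for *IL20*, −0.62 to 0.47 for *IL7R* and −0.01 to 0.27 for *IL31*. The causes were not tested. Signal over background is unknown, so a difference that was not detected in a dim gene such as *IL33* cannot be read as absent.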
